A study of Drosophila melanogaster with 2 samples.

Results

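The genes that encode aminoacyl-tRNA synthetases of Drosophila melanogaster were examined for promoter binding of a luna-eGFP fusion protein in whole embryos. Members were the protein-coding genes of the Ensembl annotation whose name is 1 or 2 three-letter amino acid codes followed by RS, with or without the ending -m for mitochondrial. This rule gave 33 of 13945 protein-coding genes on X, 4 and both arms of chromosomes 2 and 3, of which 18 were cytosolic and 15 mitochondrial. Cytosolic here means only a name without -m. Of these genes 5 (GlnRS, GlyRS, HisRS, LysRS and ThrRS) have no separate mitochondrial gene under the rule. Whether their enzymes also act in mitochondria was not examined. The genes for the cytosolic phenylalanine enzyme, alpha-PheRS and beta-PheRS, carry names of another form and were described apart. A gene was counted as having a promoter summit when the summit of a peak lay within 500 bp of any of its annotated transcription start sites (TSSs).

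An aminoacyl-tRNA synthetase joins an amino acid to the tRNAs that read its codons, and so supplies both cytosolic and mitochondrial protein synthesis. In animals most amino acids have a cytosolic enzyme and a separate nuclear-encoded mitochondrial enzyme, while a few genes serve both compartments. Several cytosolic enzymes are held together in a multi-synthetase complex, and GluProRS carries the glutamate and the proline enzyme in a single protein. The product of luna is a DNA-binding zinc finger protein and belongs to the KLF transcription factors.

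Peaks came from chromatin immunoprecipitation with an anti-GFP antibody followed by sequencing, in mixed-sex embryos aged 0 to 24 h of the strain luna-MiMIC-GFP, in which an eGFP exon placed in an intron of luna makes the fusion. There were 2 biological replicates of 1 group, and nothing in the labels beyond that word tells of separate collections, so agreement between them may in part be technical. No untreated or other control group was analysed here, and a whole embryo mixes all cell types and ages, so a peak cannot be assigned to any of them. The lists used were 1696 peaks held to repeat between the replicates at an irreproducible discovery rate (IDR) cut, 21725 pooled candidates, and 30000 candidates in each replicate. The pooled list is labelled as peaks and background used as input for IDR. A pooled candidate outside the IDR list may therefore be background. Signal is the authors' score of a peak and has no stated scale, rank 1 is the strongest peak of a list, and the depth of the libraries is unknown. Genes are not replicates of a condition, so shares are given with Wilson 95% intervals that cover counting error over genes only, and no p-value is given.

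The sequences around 6 promoter summits are given as examples. The first 4 are synthetase genes with an IDR peak between their TSS and that of a neighbour. Then follow 2 genes with weaker candidates, TrpRS with the same Dref element as ArgRS, and ArgRS-m as the strongest mitochondrial promoter. Each runs 5′ to 3′ on the strand of its gene in dm6 coordinates, reaches at most 60 bp to either side of the pooled summit, and stops where an exon begins, with letters taken from RefSeq (Release 6 assembly). Capitals mark TATCGATA, the element of the proliferation-linked factor Dref, CGATA where at least 2 copies occur, which is the core of sites for the insulator protein BEAF-32, and TATAAA read on either strand. The stretch of ArgRS covers chrX:15844365-15844475 (minus strand), that of IleRS chr3L:22288456-22288576 (plus), that of GluProRS chr3R:23958432-23958552 (minus) and that of ThrRS chr2L:12103504-12103624 (plus). The stretch of TrpRS covers chr3R:9266905-9266993 (minus) and that of ArgRS-m chr3R:7886943-7887044 (plus).
ArgRS: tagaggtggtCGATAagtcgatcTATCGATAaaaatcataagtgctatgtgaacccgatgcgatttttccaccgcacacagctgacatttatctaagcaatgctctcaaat
IleRS: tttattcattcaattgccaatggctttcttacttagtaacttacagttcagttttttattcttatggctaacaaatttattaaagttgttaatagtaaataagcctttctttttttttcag
GluProRS: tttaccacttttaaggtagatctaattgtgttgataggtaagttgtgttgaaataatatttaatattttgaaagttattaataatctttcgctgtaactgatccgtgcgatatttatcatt
ThrRS: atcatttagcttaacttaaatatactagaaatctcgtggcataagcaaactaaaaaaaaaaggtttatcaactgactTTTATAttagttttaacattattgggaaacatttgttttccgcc
TrpRS: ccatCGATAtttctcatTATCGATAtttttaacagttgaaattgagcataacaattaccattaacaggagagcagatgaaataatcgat
ArgRS-m: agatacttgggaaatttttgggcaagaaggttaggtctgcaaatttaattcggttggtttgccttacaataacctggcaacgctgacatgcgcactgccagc
The stretches of GluProRS, IleRS and ThrRS held 26.4%, 24.8% and 27.3% G and C, that of TrpRS 30.3%, that of ArgRS 40.5% and that of ArgRS-m 45.1%. A lone CGATA in GluProRS stays in lower case. Of stretches not printed, that of AspRS-m (pooled rank 5564) also held at least 2 copies of CGATA. Those of the cytosolic AsnRS, GlnRS and TyrRS did not.

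Promoter summits that passed the IDR cut were found at 6 of 18 cytosolic synthetase genes (33.3%, interval 16.3% to 56.3%) and at 0 of 15 mitochondrial ones (interval 0% to 20.4%). Over all members this was 6 of 33 (18.2%), beside 10.7% of all protein-coding genes. The intervals of both classes overlap, and the difference between them was not tested. The 6 genes were SerRS, IleRS, ArgRS, GluProRS, AspRS and ThrRS, whose enzymes charge tRNAs with serine, isoleucine, arginine, glutamate and proline, aspartate, and threonine. In the pooled list 14 of 18 cytosolic genes (77.8%) and 7 of 15 mitochondrial genes (46.7%) had a promoter candidate, beside 45.9% of all protein-coding genes, so the mitochondrial share lay near the background. In replicate 1 the counts were 12 cytosolic (66.7%) and 9 mitochondrial (60%), beside 47.1% of all genes. In replicate 2 they were 14 cytosolic (77.8%) and 8 mitochondrial (53.3%), beside 51.9%. The cytosolic share was the higher one in each of the 4 lists, and the gap was narrow in replicate 1.

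**Figure D1:**
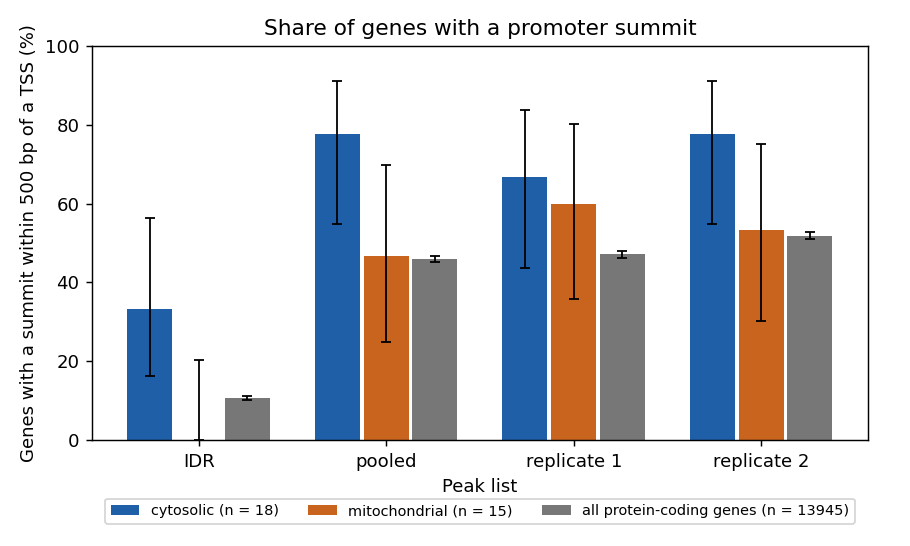
Bars give the percentage of genes with a peak summit within 500 bp of a TSS (y axis) in each peak list (x axis) for cytosolic synthetase genes, mitochondrial synthetase genes and all protein-coding genes. Error bars are Wilson 95% intervals over genes; no mitochondrial gene has a summit in the IDR list, and the intervals of both synthetase classes overlap in every list.

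Among genes with a pooled promoter candidate, the strongest candidate of a cytosolic gene had a median signal of 36.2 (14 genes, range 19.4 to 93.9), and that of a mitochondrial gene a median of 26.3 (7 genes, range 17.1 to 42.2). The median over all 6398 protein-coding genes with such a candidate was 28.9. These medians leave out the genes without a candidate, which were 4 cytosolic and 8 mitochondrial. The 1696 IDR peaks are also the 1696 strongest pooled candidates, so a gene without an IDR promoter summit had no pooled promoter candidate of a signal of 46.4 or more. Cytosolic genes also had more annotated TSSs to count from, 26 over 18 genes against 17 over 15 genes, and the part of this in the difference was not tested beyond the use of canonical TSSs alone, which left 5 cytosolic genes and 0 mitochondrial ones.

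**Figure D2:**
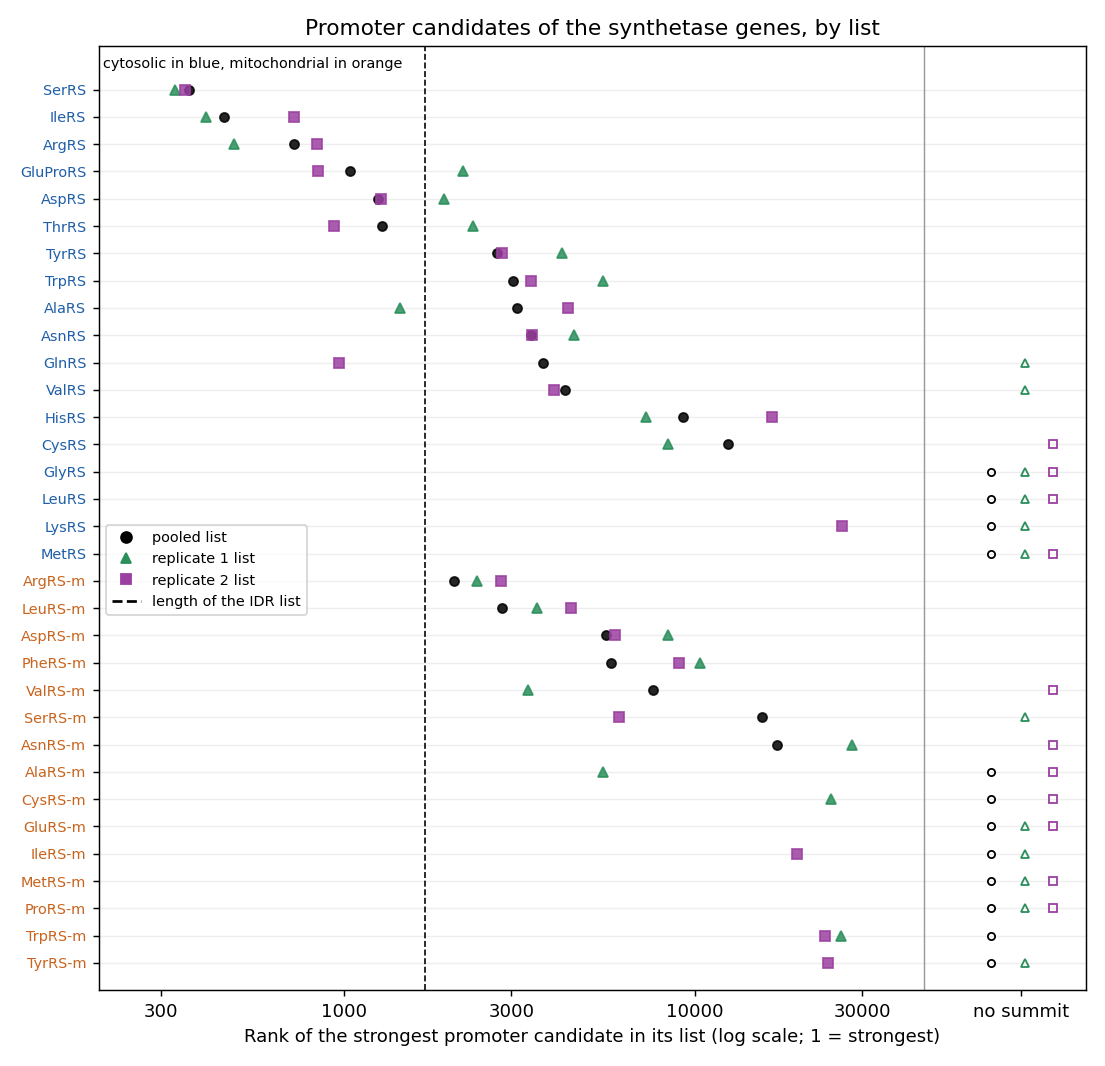
Each line is a synthetase gene and each symbol the rank of its strongest promoter candidate (log scale, 1 is the strongest) in the pooled, replicate 1 or replicate 2 list; open symbols at the right stand for no summit within 500 bp of a TSS. The 6 genes left of the dashed line in the pooled list, at ranks 362 to 1282, are all cytosolic, and the first mitochondrial gene, ArgRS-m, stands at 2059.

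SerRS carried the strongest promoter peak of the family, with a signal of 93.9 and rank 362 of 1696, at chr2L:3037169-3037544. It ranked 329 in replicate 1 (signal 46.5) and 352 in replicate 2 (signal 52.4). Its rank was thus nearly equal in both replicates. The summit lay 46 bp downstream of a SerRS TSS in the 5′ UTR, and it also lay in an intron of CG17260, whose TSS is 54 bp away on the other strand. Both TSSs are 8 bp apart, so the summit cannot be assigned to either gene by distance. From that SerRS TSS the summit lay 14 bp upstream in replicate 1 and 75 bp downstream in replicate 2. SerRS has 2 TSSs, and the IDR summit lay upstream of the other one.

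IleRS came next, with a signal of 83.9 and rank 456, at chr3L:22288328-22288703. It ranked 403 in replicate 1 (signal 42.3) and 721 in replicate 2 (signal 38.9). The summit was intergenic, 149 bp upstream of the IleRS TSS, and the replicate summits fell 1 bp and 2 bp from it. It was the only one of the 6 genes with both replicate summits within 2 bp of the IDR summit. The nearest other TSS was that of Hem, a subunit of the actin-regulating SCAR/WAVE complex, 321 bp away on the other strand.

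ArgRS had a signal of 69.6 and rank 722, at chrX:15844237-15844612. It ranked 484 in replicate 1 (signal 39.1) and 838 in replicate 2 (signal 36.3). The IDR summit was intergenic, 280 bp upstream of ArgRS and only 51 bp upstream of CG8578, so the neighbour was the nearer gene. The replicates differed in position here, with the summit 123 bp upstream of ArgRS in replicate 1 and 294 bp upstream in replicate 2. SerRS, IleRS and ArgRS were the 3 members whose promoter candidates ranked within the first 1696 of both replicate lists.

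The other 3 peaks were stronger in rank in replicate 2 than in replicate 1. GluProRS had a signal of 58.5 and rank 1039, at chr3R:23958304-23958679, with rank 2182 in replicate 1 (signal 19.4) and 841 in replicate 2 (signal 36.3). Its summit was intergenic, 101 bp upstream of GluProRS and 159 bp upstream of AP-1sigma, a subunit of a clathrin adaptor complex. ThrRS had a signal of 53.1 and rank 1282, at chr2L:12103376-12103751, with rank 2329 in replicate 1 (signal 18.9) and 936 in replicate 2 (signal 34.9). Its summit was intergenic as well, 187 bp upstream of ThrRS and 279 bp upstream of Patsas. In replicate 1 both candidates ranked below the first 1696.

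AspRS had a signal of 53.5 and rank 1253, at chr2R:12879740-12880115, with rank 1928 in replicate 1 (signal 20.5) and 1277 in replicate 2 (signal 30.7). Its summit lay in introns of both AspRS and Nmda1, 356 bp upstream of an internal AspRS TSS and 130 bp from the nearest TSS of Nmda1, with 486 bp between these starts. Another TSS of AspRS has a closer head-to-head neighbour, Lfg, at 38 bp. That internal TSS is not the canonical one, so AspRS has no promoter peak when canonical TSSs alone are used. The larger replicate rank was at most 2.59 times the smaller for the 6 peaks, the extreme being GluProRS.

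**Figure D3:**
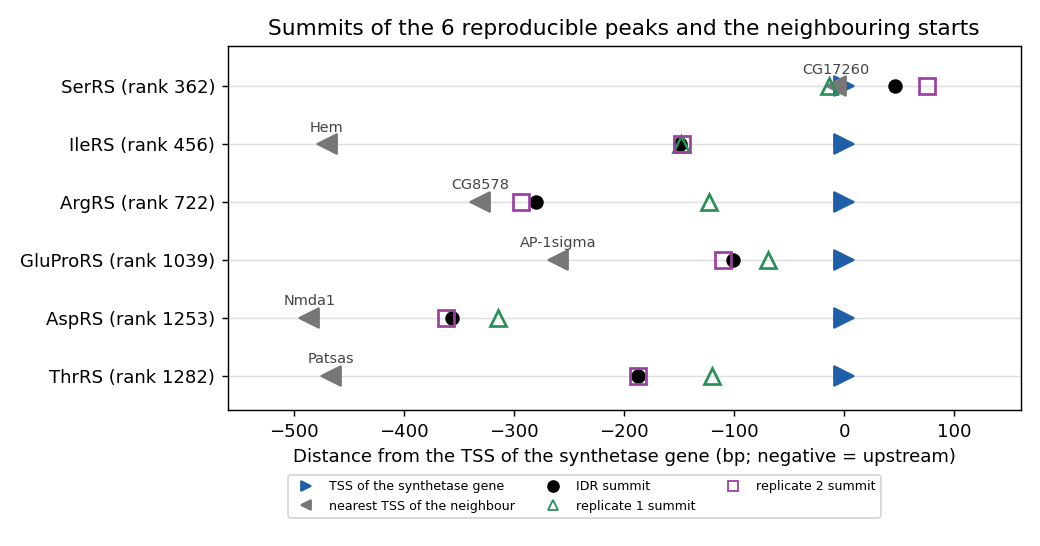
Positions in bp along the direction of each synthetase gene, from its TSS at 0 (negative is upstream), of the IDR summit (filled circle), the replicate summits (open symbols) and the nearest TSS of the neighbouring gene (grey, pointing the other way). In 5 of the 6 genes the IDR summit lies upstream, between both starts. That of SerRS lies 46 bp downstream of the TSS drawn, which is 1 of 2 for that gene.

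Each of the 6 IDR summits therefore had exactly 1 other gene with a TSS within 500 bp, always protein-coding and always on the other strand. This arrangement was common in the family. A head-to-head neighbour, meaning a protein-coding gene on the other strand whose TSS lies upstream within 1000 bp, was present at 16 of 18 cytosolic genes (88.9%) and at 7 of 15 mitochondrial genes (46.7%), beside 36.2% of all protein-coding genes. The median spacing of the starts was 277.5 bp in the cytosolic class, 166 bp in the mitochondrial class and 298 bp over all genes with such a neighbour. All 6 genes with an IDR promoter peak were among the 16 cytosolic genes with a neighbour (37.5%), while 0 of the 7 mitochondrial genes with one had a peak. Over all protein-coding genes the share with an IDR promoter peak was 19.7% with a head-to-head neighbour and 5.62% without. None of the 10 synthetase genes without such a neighbour had an IDR promoter peak. The head-to-head arrangement thus moved with the class difference, and its part in that difference was not tested.

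A head-to-head neighbour did not always come with a candidate. GlyRS, LeuRS, LysRS and MetRS, the 4 cytosolic genes without a pooled promoter candidate, had the neighbours Plp, CG17593, Hecw and CG15084. Their TSSs lay 418 bp, 216 bp, 62 bp and 245 bp away, all within the range of 8 bp (SerRS) to 486 bp (AspRS) between the starts on either side of the 6 peaks. When each IDR summit was given to its nearest gene only, ArgRS and AspRS dropped out and the other 4 cytosolic genes remained, beside 7.63% of all protein-coding genes under that rule. In the pooled list, 16 of the 21 members with a candidate had another protein-coding TSS within 500 bp of the summit. The other gene was nearer in 5 of them, ArgRS, AspRS, CysRS, TyrRS and ValRS. All are cytosolic, so the higher cytosolic share in the pooled list includes these summits. The same share over all protein-coding genes was not computed.

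The strongest promoter candidates outside the IDR list were those of ArgRS-m, TyrRS, LeuRS-m, TrpRS and AlaRS. ArgRS-m, which serves arginine in mitochondria, ranked 2059 of 21725 with a signal of 42.2 and a summit 42 bp upstream. Its ranks of 2400 in replicate 1 and 2810 in replicate 2 were close, and the authors' −log10 q was 2.44. That was the highest of the 15 members with a pooled candidate outside the IDR list. The value was 1.15 at GlnRS, the 7th in order, and fell to 0.0591 at AsnRS-m, the last. Among mitochondrial genes only ArgRS-m and LeuRS-m (1.76) stood above AspRS-m (0.626). Among cytosolic genes HisRS (0.264) and CysRS (0.144) were the lowest. TyrRS ranked 2732 with a signal of 37.0, and its ranks were 4191 and 2818 in replicates 1 and 2. Its pooled summit lay 247 bp upstream of TyrRS and 48 bp upstream of CG33158, so the neighbour was nearer. LeuRS-m ranked 2819 with a signal of 36.5, and 3555 and 4436 in the replicates. TrpRS ranked 3025 with a signal of 35.4, and 5489 and 3414 in the replicates.

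AlaRS ranked 3119 with a signal of 34.9, and its replicates disagreed. It ranked 1442 in replicate 1 with a summit 303 bp upstream, and 4357 in replicate 2 with a summit 112 bp upstream. GlnRS was listed in replicate 2 and not in replicate 1, at rank 967 in replicate 2 (signal 34.3), and rank 3694 in the pooled list (signal 32.1). In all, 15 members had a promoter candidate in the pooled list and both replicate lists, 11 of 18 cytosolic and 4 of 15 mitochondrial, beside 34.7% of all protein-coding genes.

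No promoter candidate was found in any list for GlyRS, LeuRS, MetRS, GluRS-m, MetRS-m and ProRS-m, 3 genes of each class. The share of all protein-coding genes without a candidate in any list was not computed, so this count has no direct background. List by list, 45.9% (pooled), 47.1% (replicate 1) and 51.9% (replicate 2) of all protein-coding genes had a candidate. The other 6 genes without a pooled candidate had one in a replicate list, mostly weak. These were LysRS at rank 26314 in replicate 2, AlaRS-m at 5471 and CysRS-m at 24407 in replicate 1, IleRS-m at 19526 and TyrRS-m at 23995 in replicate 2, and TrpRS-m at 26146 and 23466 in replicates 1 and 2. Of the 14 pairs of enzymes described below, that for methionine was the one in which neither gene had a candidate in any list. Absence from these lists says only that no candidate was listed within 500 bp of a TSS, since depth is unknown.

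The distance limit decided some calls. CysRS was counted through a pooled summit 494 bp upstream and a replicate 1 summit 500 bp upstream, and SerRS-m through one 462 bp downstream. Just outside the limit, ProRS-m had a pooled summit 601 bp upstream. LeuRS-m had an IDR summit 818 bp upstream (rank 450, signal 84.6), which is stronger than the peak at all but SerRS among the 6 genes. AlaRS had an IDR summit 1083 bp upstream (rank 662, signal 72.4).

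Cytosolic and mitochondrial enzymes of the same amino acid could be set side by side in 14 pairs, with GluProRS paired to both GluRS-m and ProRS-m. The cytosolic gene had the stronger pooled promoter candidate, or the only one, in 12 pairs. The mitochondrial gene had the only one in 1 pair, for leucine, and neither gene had one for methionine. In the 5 pairs with a pooled candidate at both genes the pooled cytosolic signal was the higher in each. The summits counted for ArgRS, AspRS and ValRS were nearer to a neighbour, at 51 bp (CG8578), 130 bp (Nmda1) and 64 bp (Kdm4B). Those of AsnRS and SerRS were nearer to the synthetase gene, SerRS by 46 bp against 54 bp. None of the mitochondrial summits in these pairs was nearer to another protein-coding gene. SerRS stood at 93.9 against 17.8 for SerRS-m, a ratio of 5.27. AspRS stood at 53.5 against 26.7 for AspRS-m, a ratio of 2.00, and ArgRS at 69.6 against 42.2 for ArgRS-m, a ratio of 1.65. The ratio was 1.96 for asparagine and 1.27 for valine. The replicates disagreed for valine, since replicate 1 listed a candidate for ValRS-m alone (signal 16.3) and replicate 2 for ValRS alone (signal 18.8). IleRS at 83.9 and GluProRS at 58.5 faced mitochondrial genes with no pooled promoter candidate. ThrRS has no separate mitochondrial gene under the naming rule, so it entered no pair.

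**Figure D4:**
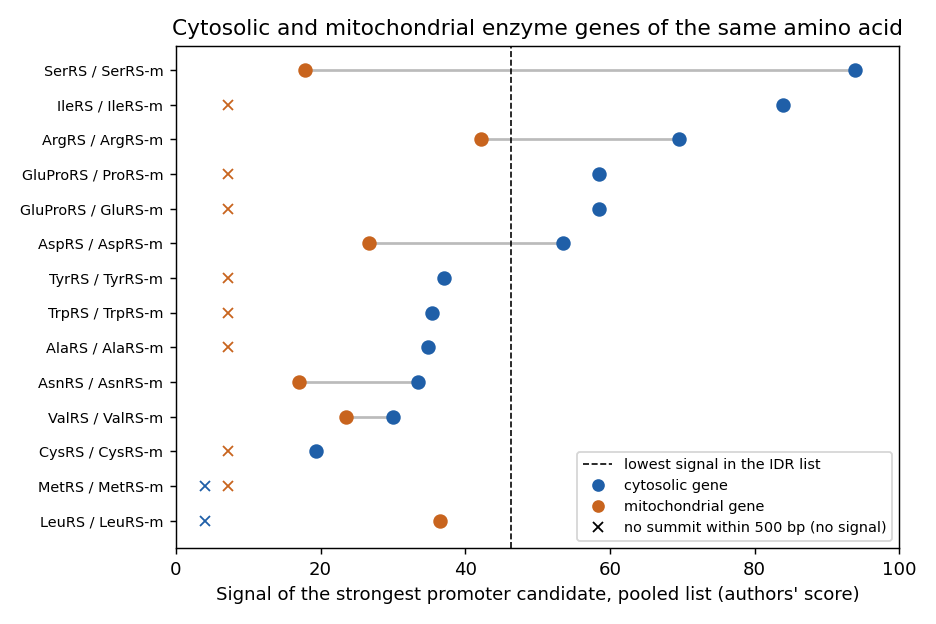
Signal of the strongest pooled promoter candidate (x axis, the authors' score) for the cytosolic and the mitochondrial gene of each of 14 pairs; crosses stand for no summit within 500 bp and carry no signal. The dashed line is the lowest signal in the IDR list, 46.4, and 6 pairs have a cytosolic gene to its right, with GluProRS counted in 2 of them.

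Motifs were searched on both strands from 250 bp before to 50 bp after the TSS nearest to the strongest summit, or the TSS farthest upstream where a gene had no candidate. The Dref element TATCGATA occurred in 6 synthetase promoters, beside 9.11% of all 13945 protein-coding promoters of the same length. These were 5 cytosolic promoters (AlaRS, ArgRS, AspRS, IleRS and TrpRS) and 1 mitochondrial promoter (PheRS-m). At least 2 copies of CGATA were found in 13 promoters, 9 cytosolic and 4 mitochondrial, beside 24.0% of all promoters. The Dref element holds CGATA on both strands, so its 6 promoters are within the 13, and 7 had the CGATA pair without it. The element stood 30 bp upstream of ArgRS, 14 bp upstream of AspRS and 38 bp upstream of IleRS. ArgRS had a further copy beyond this window, close to its summit and to the start of CG8578, and that copy is the one in the stretch printed above. It follows a CGATA there, as does the element of TrpRS, at candidates of rank 722 and rank 3025.

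Of the 6 genes with an IDR promoter peak, 3 held the Dref element and 4 the CGATA pair, beside 15.6% and 35.9% of the 1493 protein-coding genes with such a peak. Within 250 bp of the summits, the nearest Dref element stood 24 bp from the summit of ArgRS and 111 bp from that of IleRS. For ArgRS this is the further copy, outside the promoter window. The summit of AspRS had no Dref element within 250 bp. CGATA stood 27 bp from the summit of AspRS and 49 bp from that of GluProRS. SerRS and ThrRS held neither motif in the promoter window. TATAAA, the core of the TATA box, occurred in 17 promoters, beside 45.2% of all. Among the 6 genes with an IDR promoter peak it occurred in 2 promoters (33.3%), those of SerRS and ThrRS. The share was 41.6% over the 1493 protein-coding genes with such a peak. Counted from the summits, the nearest TATAAA stood 8 bp from that of SerRS, 20 bp from that of ThrRS and 33 bp from that of AspRS. For ArgRS and IleRS the distances were 128 bp and 182 bp, and GluProRS had none within 250 bp. The matches of AspRS, ArgRS and IleRS lay farther upstream than the promoter window.

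The KLF core, searched as CACACCC or CACGCCC, occurred in 1 synthetase promoter, that of TyrRS-m, beside 3.69% of all promoters. It occurred in none of the 6 with an IDR peak, beside 2.88% of the 1493 protein-coding genes with such a peak. None among 6 genes lies near that share. The Sp-type box GGGCGG occurred in none of the 33 promoters, beside 6.09% of all. The element of the promoter factor M1BP, GGTCACACT, occurred in GlnRS, AsnRS-m, AspRS-m and ProRS-m, beside 5.94% of all. The E-box CACGTG occurred in GlnRS and LeuRS-m, beside 4.14%, GAGAGAG for the GAGA factor in ArgRS-m, beside 6.41%, and TGATGNAA, a core of sites for the amino acid stress factor ATF4, in CysRS, beside 4.03%. These are matches of letters in a window, with no evidence here on which factor was bound. The median G and C content of the 300 bp promoters was 36% in the cytosolic class, 32.3% in the mitochondrial class and 38.3% over all genes.

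Other genes of tRNA charging and of translation gave the surroundings of this pattern. Among 10 partners of the synthetases found in the annotation, 2 had an IDR promoter peak and 7 a pooled candidate. The 15 names searched for them included spelling variants of the same genes. Over all protein-coding genes the shares were 10.7% and 45.9%. GatA, a subunit of the amidotransferase that makes glutaminyl-tRNA in mitochondria, had a signal of 79.9 at rank 517, and ranked 643 and 608 in replicates 1 and 2. The other subunits of that enzyme differed from it, with no candidate in any list for GatB and a pooled candidate at rank 12043 (signal 19.7) for GatC, which had none in replicate 1. beta-PheRS, the beta subunit of the cytosolic phenylalanine enzyme, had a signal of 55.1 at rank 1174, with a summit 30 bp upstream, while alpha-PheRS ranked 6995 with a signal of 24.3. AIMP3, a scaffold protein of the multi-synthetase complex, had no candidate in any list.

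Of 7 cytosolic elongation factor genes 4 had an IDR promoter peak. They were eEF1alpha1, which brings charged tRNAs to the ribosome, eEF1gamma of its nucleotide exchange complex, eEF2, which drives translocation, and eEF5, which aids peptide bond formation. eEF1gamma stood at rank 131 with a signal of 139, above every synthetase gene, and eEF1alpha1 at rank 375 with 92.8. eEF2 stood at rank 1020 with 59.1, and eEF5 at rank 1373 with 51.2 but at 15647 in replicate 2. Of 4 mitochondrial elongation factor genes 0 had an IDR promoter peak. A pooled candidate was present at all 4 of them and at 5 of the 7 cytosolic ones, so this order was the reverse. Most of these mitochondrial candidates were weak. mEFTu1 ranked 3522 (signal 32.9), mEFTs 10247 (20.9), mEFTu2 17795 (16.8) and mEFG1 18056 (16.8), where the lowest pooled signal was 15.5. mEFTu2 was not listed in replicate 2, nor mEFG1 in replicate 1. The cytosolic eEF1beta, outside the IDR list, was weak as well, at rank 8996 (22.0). The shares over all protein-coding genes were 10.7% (IDR) and 45.9% (pooled). By comparison 54 of 88 cytosolic ribosomal protein genes (61.4%) had an IDR promoter peak. So did 12 of 73 mitochondrial ribosomal protein genes (16.4%) and 7 of 44 initiation factor genes (15.9%). Head-to-head neighbours were present at 59.1% of the cytosolic and 79.5% of the mitochondrial ribosomal protein genes, the reverse order of their IDR shares.

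**Figure D5:**
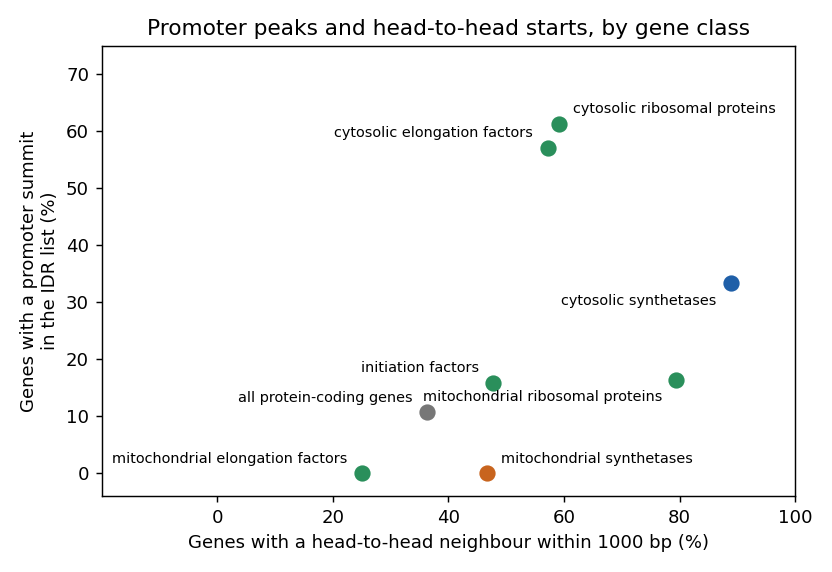
For each gene class, the percentage of genes with a head-to-head neighbour within 1000 bp (x axis) against the percentage with a promoter summit in the IDR list (y axis). Cytosolic synthetases lie at 88.9% and 33.3%, mitochondrial synthetases at 46.7% and 0%, and mitochondrial ribosomal protein genes at 79.5% and 16.4%.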

How the data were processed

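Peak lists in narrowPeak format were used for 2 biological replicates of 1 group. Per the deposited README texts, candidates were derived from alignments and a control file, both replicates were joined for the pooled list, and the IDR list draws on all 3. The aligner, the IDR cut and the peak caller are each not given in sources used here. For every peak the authors deposited a signal value, used as a score to rank peaks within a list, a q-value on the −log10 scale, and a summit offset. The dm3 lists were not used here.

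TSSs came from Ensembl release 115 (BDGP6.54, the coordinates of dm6), and 0 peaks reached beyond an arm's end. A member had a promoter summit within 500 bp of any TSS. Of all genes, the text describes in full the members with an IDR promoter summit, then the 5 strongest pooled candidates outside the IDR list, the members without a pooled candidate and the pairs of enzymes of 1 amino acid. GlnRS and the genes near the distance limit were singled out after their values were seen. Partner and motif lists were set by name. The members and lists were chosen with earlier results of these data known. Counts are shown beside those over all 13945 protein-coding genes, with Wilson 95% intervals (statsmodels 0.14.6, Python 3.11.15), and no test was made. Depth is unknown. Alternatives were other promoter widths, overlap of intervals, the stronger 848 IDR peaks, canonical TSSs, the nearest gene alone and each replicate alone.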

Additional observations from a re-analysis of the deposited data

How the results depend on the processing

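The IDR count of 6 cytosolic and 0 mitochondrial genes was recomputed under 8 alternatives. Among the stronger 848 IDR peaks, 3 genes were left over all members and 3 among the cytosolic ones (SerRS, IleRS and ArgRS), beside 5.79% of all protein-coding genes; fewer peaks enter by construction. With promoters of 1000 bp the mitochondrial count was 1, LeuRS-m, beside 12.5% of all genes. In each other alternative the mitochondrial count was 0. The cytosolic count was 4 with promoters of 250 bp (8.77% of all protein-coding genes), 6 with any overlap of the interval (11.5%), 5 with canonical TSSs alone (9.28%) and 4 with the nearest gene alone (7.63%). With the first 1696 candidates of a single replicate in place of the IDR list it ranged from 4 to 7: 7 without replicate 1 (10.5% of all genes), GlnRS being added, and 4 without replicate 2 (10.4%), where AlaRS was added and AspRS, GluProRS and ThrRS were lost. No paired analysis was possible because there is 1 group. With motif windows from 200 bp before to 200 bp after the TSS, 4 in place of 1 promoters held the KLF core, beside 6.03% of all, and 3 in place of 0 the Sp-type box, beside 10.03%. The Sp-type box was then found at 2 of the 6 genes with an IDR promoter peak, beside 9.71% of all genes with such a peak. TGATGNAA was found in 4 in place of 1, beside 5.56% of all, and GAGAGAG in 0 in place of 1, beside 7.08%. The causes of these shifts were not tested.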

Other observations

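The 18 cytosolic genes were also split by what their enzymes are known for, after the values had been seen, so the counts are a description with no test. In the multi-synthetase complex, taken as GluProRS, IleRS, LeuRS, MetRS, GlnRS, LysRS, ArgRS and AspRS, 4 of 8 genes had an IDR promoter peak and 5 a pooled promoter candidate. Of the 10 other cytosolic genes 2 had an IDR promoter peak, SerRS and ThrRS, and 9 a pooled candidate. Over all protein-coding genes 10.7% had an IDR promoter peak and 45.9% a pooled promoter candidate. These shares are the background for each count given here, and the groups are small. LeuRS, LysRS and MetRS, which are 3 of the 4 cytosolic genes without a pooled candidate, were in the complex, while SerRS with the strongest peak was outside it. By structural class, 2 of 9 class I enzymes (ArgRS and IleRS) and 3 of 8 class II enzymes (AspRS, SerRS and ThrRS) had an IDR promoter peak, with GluProRS belonging to both. Of the 5 cytosolic genes without a separate mitochondrial gene (GlnRS, GlyRS, HisRS, LysRS and ThrRS) 1 had an IDR promoter peak, against 5 of the 13 with one.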
